A study of Rattus norvegicus with 6 samples.

Results

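Circadian clock genes were followed in synovial fibroblast-like cells of arthritic rats that were kept in 3 different sera. The members were 10 genes taken by symbol: Arntl, Clock, Per1, Per2, Per3, Cry1, Cry2, Nr1d1, Nr1d2 and Dbp. Of these, 9 were matched among 16499 symbols and all 9 passed the filter on low values. Nr1d2 was not analysed here. Where a symbol had more than 1 transcript, the most abundant one was used.

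The clock is a feedback loop that runs in nearly every cell. Clock and Arntl (also called Bmal1) form a pair that binds E-box sequences and switches on the Per and Cry genes, whose proteins return to the nucleus and block that pair. In a second loop the nuclear receptors Nr1d1 and Nr1d2 (Rev-erb alpha and beta) repress Arntl, and Dbp passes the rhythm to output genes through D-box sequences. Cultured fibroblasts keep clocks of their own, and a pulse of serum is a standard laboratory means to synchronise them.

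Poly(A) RNA was sequenced from cells of female Wistar rats with collagen-induced arthritis, taken before any therapy, and cells marked RA1 and RA2 stood in each of 3 media, which gave 6 libraries. One medium held fetal bovine serum (FBS). The second held blood serum drawn from rats without treatment (MS−), and the third that of rats given needle stimulation over 18 days (MS+), which the labels call acupuncture. The replicate is the cell source, RA1 or RA2, whose mark is shared by the 3 sera. Whether each mark stands for 1 rat, and how many animals gave each serum, was not stated. One label field calls the MS− rats healthy while others call them arthritic, and the study describes that serum in more than 1 way. One description is a draw before any therapy began. On that reading, stimulation and the time of the draw cannot be told apart between MS+ and MS−. Age was not given. By the study, the cells were harvested days, not hours, after the sera were added. Each culture gave 1 library from 1 harvest, so a shift in the phase of a rhythm and a change in its mean level cannot be told apart.

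Levels are in CPM, read counts scaled by library size and TMM factor, as deposited, for transcripts placed on the genome build rn4. The libraries held 5463316 to 5991889 reads, and 3 reads, taken as the floor of detection, corresponded to 0.491 to 0.551 CPM. All 9 fibroblast markers examined were detected in every library, with summed levels of 81171 to 88027 CPM in FBS, 62829 to 65437 in MS− and 71278 to 73959 in MS+. Of 8 macrophage markers measured, 5 (Ptprc, Itgam, Cd163, Lyz2 and Emr1) were at 0 in all 6 libraries, although Ptprc (several transcripts over the same span) and Lyz2 (under Lyc2) overlap other transcripts whole, and shared reads are not counted. The sum of the list was 13.8 to 14.6 CPM in FBS, 17.2 to 20.5 in MS− and 16.3 to 17.7 in MS+, most of it Cd14. Of 4 endothelial markers measured, Cdh5 and Tie1 were at 0 throughout and the sum was 0.181 to 1.47 CPM. Of 6 muscle markers, which summed to 772 to 1203 CPM, nearly all was Acta1, whose reads cannot be separated with certainty from those of near-identical actin genes.

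Per1, a repressor of the loop, was the member with the largest differences from FBS. Relative to FBS it rose 4.27-fold in MS+, Nr1d1 rose 2.58-fold, and Cry1 fell to 0.514 of its FBS level, as ratios of mean CPM. In MS− Per1 rose 2.85-fold over FBS and no other member passed the same test. Between MS+ and MS−, whose serum donors differed in stimulation and perhaps in the time of the draw, no member passed it. These results are from a fit without pairing by cell source. In a paired fit, given below, Per1 and Nr1d1 passed between MS+ and MS−. Clock and Nr1d1 then also passed in MS− against FBS, and Clock, Dbp and Per3 in MS+ against FBS. Arntl, Per2 and Cry2 passed no test in any of the 3 comparisons.

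The calls without pairing are limma tests on log2(CPM + 1) with Benjamini-Hochberg adjustment over 9820 transcripts, at an adjusted p under 0.05. In MS+ against FBS 3 of 9 members were called (2 higher and 1 lower), beside 9.61% of all transcripts tested (4.95% higher and 4.66% lower). In MS− against FBS it was 1 of 9, higher, beside 4.81% (2.09% higher and 2.72% lower), and in MS+ against MS− 0 of 9 beside 0.0204%. In that last comparison 3 members (Per1, Nr1d1 and Per3) had an unadjusted p under 0.05, edgeR and limma-voom called 0 members, and DESeq2 called 1, Per1. Since cells with the same 2 marks stood in every serum, the cell source can be entered as a block. With it, 6 of 9 members (5 higher and 1 lower) were called in MS+ against FBS beside 28.2% of transcripts (14.4% higher and 13.9% lower). The block gave 3 of 9 in MS− against FBS, all higher, beside 20.5% (10.8% and 9.63%), and 2 of 9 in MS+ against MS−, both higher, beside 10.1% (5.27% and 4.78%). The FBS libraries enter both comparisons with FBS, and the MS− and MS+ libraries each enter a pair of comparisons, so the 3 counts are not independent.

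**Figure D1:**
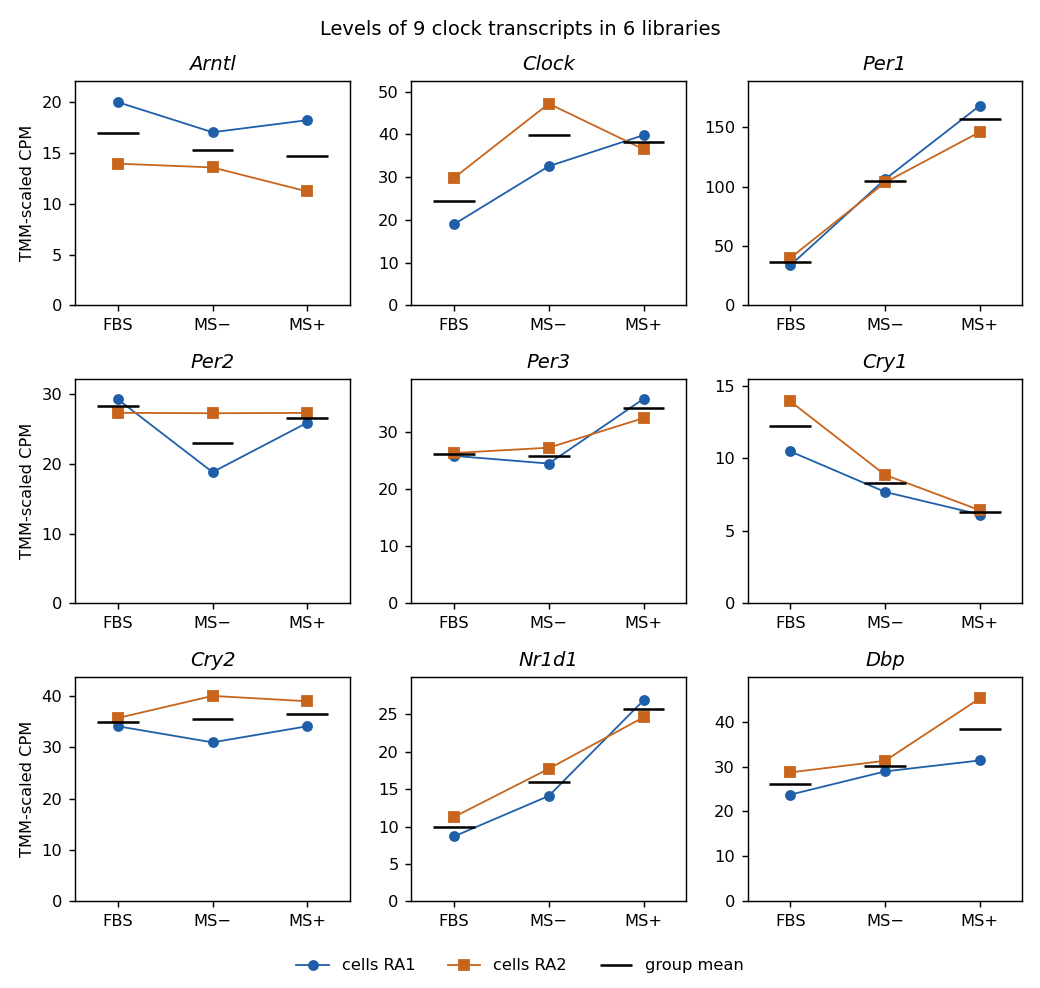
Level of each of the 9 members in TMM-scaled CPM (vertical axes, each starting at 0 and with its own range) in FBS, MS− and MS+. Circles and squares are the cells RA1 and RA2, lines join the libraries of 1 cell source, and black bars are group means; in Per1 all 4 libraries in rat serum sit above both FBS libraries.

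The median member stood 0.37 higher on the log2(CPM + 1) scale in MS+ than in FBS, beside 0.00078 for all transcripts. It stood 0.22 higher in MS+ than in MS−, beside -0.0058, and 0.01 higher in MS− than in FBS, beside 0.01. The MS+ and FBS libraries did not overlap for 7 of 9 members (5 higher and 2 lower), beside 56.7% of all transcripts (28.4% higher and 28.3% lower). For MS− and FBS this held for 6 of 9 (4 higher and 2 lower) beside 51.6% (27.1% and 24.5%), and for MS+ and MS− for 5 of 9 (4 higher and 1 lower) beside 45.8% (22.6% and 23.1%). Per2, counted as lower in both comparisons with FBS, was separated by a trace only (27.36 CPM in the lower FBS library against 27.35 in the higher MS+ library). Dbp, counted as higher, was also separated narrowly in MS+ against MS− (31.35 against 31.27 CPM) and in MS− against FBS (28.90 against 28.68). With 2 libraries a group, separation of this kind is common among all transcripts.

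The promoters of the members that rose, and of Per2 and Per3 as the paralogs of Per1 that did not pass the test, are given so that their E-box and D-box letters can be compared. The sequences are from RefSeq on the build GRCr8, which is not that of the expression table, and run from 250 bases before to 50 after an annotated start. Of the 10 members, 9 had at least 1 such promoter and Cry1 was not among them, while Nr1d1 and Clock had 2 each. Capitals mark motif matches and all else is in lower case. Per1 lies at chr10:54304126-54304425 (plus strand), Nr1d1 promoter 1 at chr10:84229405-84229704 (minus), Nr1d1 promoter 2 at chr10:84231763-84232062 (minus), Per2 at chr9:99496944-99497243 (minus) and Per3 at chr5:166777751-166778050 (minus).
Per1: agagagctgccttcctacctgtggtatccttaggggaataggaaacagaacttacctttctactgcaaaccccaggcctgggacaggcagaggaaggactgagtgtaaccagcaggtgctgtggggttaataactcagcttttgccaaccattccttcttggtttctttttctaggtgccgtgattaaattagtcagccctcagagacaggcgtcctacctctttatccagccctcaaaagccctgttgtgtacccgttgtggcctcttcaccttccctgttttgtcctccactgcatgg
Nr1d1 promoter 1: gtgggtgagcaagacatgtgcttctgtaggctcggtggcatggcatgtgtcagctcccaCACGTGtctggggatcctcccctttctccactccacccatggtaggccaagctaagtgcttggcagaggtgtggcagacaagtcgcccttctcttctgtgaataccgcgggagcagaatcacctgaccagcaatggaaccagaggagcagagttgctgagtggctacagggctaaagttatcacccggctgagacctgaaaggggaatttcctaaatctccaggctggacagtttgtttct
Nr1d1 promoter 2: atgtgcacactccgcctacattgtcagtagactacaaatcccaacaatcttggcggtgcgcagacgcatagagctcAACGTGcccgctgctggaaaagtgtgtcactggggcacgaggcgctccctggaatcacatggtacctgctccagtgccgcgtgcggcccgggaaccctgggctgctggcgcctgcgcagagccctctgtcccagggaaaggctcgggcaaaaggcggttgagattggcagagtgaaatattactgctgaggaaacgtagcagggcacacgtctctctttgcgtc
Per2: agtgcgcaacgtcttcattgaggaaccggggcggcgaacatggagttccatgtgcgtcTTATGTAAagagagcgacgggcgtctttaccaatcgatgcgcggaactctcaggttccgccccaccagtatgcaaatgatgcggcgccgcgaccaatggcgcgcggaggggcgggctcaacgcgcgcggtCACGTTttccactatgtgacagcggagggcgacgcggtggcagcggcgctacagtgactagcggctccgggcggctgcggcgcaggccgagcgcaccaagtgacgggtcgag
Per3: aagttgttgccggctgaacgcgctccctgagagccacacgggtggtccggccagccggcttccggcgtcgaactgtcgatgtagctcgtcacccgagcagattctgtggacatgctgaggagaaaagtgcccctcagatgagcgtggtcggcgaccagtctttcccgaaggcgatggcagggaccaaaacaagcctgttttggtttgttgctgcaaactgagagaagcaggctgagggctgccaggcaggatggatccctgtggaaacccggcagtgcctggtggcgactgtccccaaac

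The motifs searched on both strands were the E-box CACGTG, held by 6.42% of 33469 promoters of 300 bases, its variant CACGTT (4.83%), the D-box core TTATGNAA (3.66%), the nuclear receptor element AGGTCA (16.2%) and the cAMP response element TGACGTCA (1.83%). No 2 matches overlapped. Nr1d1 promoter 1 held the E-box 191 to 186 bases before its start, and promoter 2 held the variant on the opposite strand, 174 to 169 bases before. Per2 held the variant at 62 to 57 bases and the D-box core at 192 to 185 bases before the start. The window of Per1 held none of these letters, nor did those of Per3, Clock and Dbp. Of the other members, Cry2 held the variant E-box at 212 to 207 bases, and Arntl and Nr1d2 held the receptor element at 15 to 10 and 187 to 182 bases before their starts. A match describes letters in this window and is not evidence of binding. The lack of a match likewise covers this window only, as sequence outside it was not searched.

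Of the activators, Arntl (NM_024362, chr1:171062181-171162426, plus strand) stood at 20.0 CPM in RA1 and 13.9 in RA2 in FBS, at 17.0 and 13.6 in MS−, and at 18.2 and 11.2 in MS+. It was lower in RA2 than in RA1 in every serum, and the 3 groups overlapped. Its differences on the log2(CPM + 1) scale were -0.21 (SE 0.27, limma adjusted p = 0.665) in MS+ against FBS, -0.13 (SE 0.27, 0.841) in MS− against FBS and -0.08 (SE 0.27, 0.928) in MS+ against MS−. The 95% interval of the first ran from -0.86 to 0.44, so a fall or a rise of moderate size could have gone undetected.

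Clock (NM_021856, chr14:34218472-34258054, plus strand), the partner of Arntl, stood at 19.0 and 29.8 CPM in FBS, 32.6 and 47.2 in MS−, and 39.8 and 36.5 in MS+, with RA1 given first here and below. Both libraries of each rat serum were above both FBS libraries, while MS− and MS+ overlapped. Against FBS the differences of 0.66 in MS+ (SE 0.25, limma adjusted p = 0.143) and 0.70 in MS− (SE 0.25, 0.175) were not called. With the cell source as a block both were, at limma adjusted p = 0.00624 and 0.00572. Within a cell source the MS+ to FBS ratio was 2.1 in RA1 and 1.22 in RA2.

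Among the repressors, Per1 (NM_001034125, chr10:55859851-55868747, plus strand) stood at 33.7 and 40.0 CPM in FBS, 106 and 104 in MS−, and 168 and 146 in MS+. These levels rest on 206 to 934 reads a library. No group overlapped another, and the gap between FBS and MS− was far wider than the gap between RA1 and RA2 in any serum. The macrophage sum and the fibroblast sum given above also differed between FBS and the rat sera, and their part in this result was not tested. In bulk RNA, fewer cells with a transcript and less of it per cell cannot be told apart.

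The rise of Per1 on the log2(CPM + 1) scale was 2.06 (SE 0.12, limma adjusted p = 0.00093) in MS+ against FBS and 1.49 (SE 0.12, 0.00234) in MS− against FBS. Both calls held in all 15 alternatives, with the largest adjusted p at 0.0269 and 0.0265, and both libraries of each rat serum showed the direction. Between MS+ and MS− Per1 differed by 0.58 (SE 0.12), with an unadjusted p of 0.00231 and a limma adjusted p = 0.138. With the cell source as a block the last became 0.00352, and DESeq2 without the block gave 0.0409. The MS+ to MS− ratio was 1.58 in RA1 and 1.41 in RA2.

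Its paralog Per2 (NM_031678, chr9:90645342-90687509, minus strand), whose promoter window holds the variant E-box and the D-box core, stood at 29.3 and 27.4 CPM in FBS, 18.8 and 27.3 in MS−, and 25.9 and 27.3 in MS+. In RA2 the level was nearly the same in all 3 sera, and the MS− value of RA1 was the only one below 25 CPM. The differences were -0.08 (SE 0.18, limma adjusted p = 0.807) in MS+ against FBS and -0.31 (SE 0.18, 0.402) in MS− against FBS. The 95% interval of the MS+ difference, -0.52 to 0.35, lies wholly below that of Per1, 1.78 to 2.35.

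Per3 (NM_023978, chr5:168152693-168187442, minus strand), the third paralog, stood at 25.9 and 26.4 CPM in FBS, 24.5 and 27.3 in MS−, and 35.9 and 32.5 in MS+. Both MS+ libraries were above the other 4. The difference was 0.37 (SE 0.13, limma adjusted p = 0.115) in MS+ against FBS, 0.39 (SE 0.13, 0.244) in MS+ against MS−, and -0.01 (SE 0.13, 0.970) in MS− against FBS. With the cell source as a block the first was called at limma adjusted p = 0.0486 and the second was not, at 0.0807.

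Differences between transcripts of one library set a pair of members side by side. The scaling factor does not cancel in full, because 1 is added to each CPM. Only the change between sera can be read, because transcripts differ in length. On the log2(CPM + 1) scale, Per1 minus Per2 was 0.20 and 0.53 in FBS, 2.43 and 1.89 in MS−, and 2.65 and 2.38 in MS+. Per1 minus Per3 was 0.37 and 0.58 in FBS, 2.07 and 1.89 in MS−, and 2.20 and 2.14 in MS+. In both pairs the 4 libraries in rat serum lay above both FBS libraries. An exact permutation test of 2 libraries against 2 cannot go below p = 0.333, so no test was made of these differences.

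**Figure D2:**
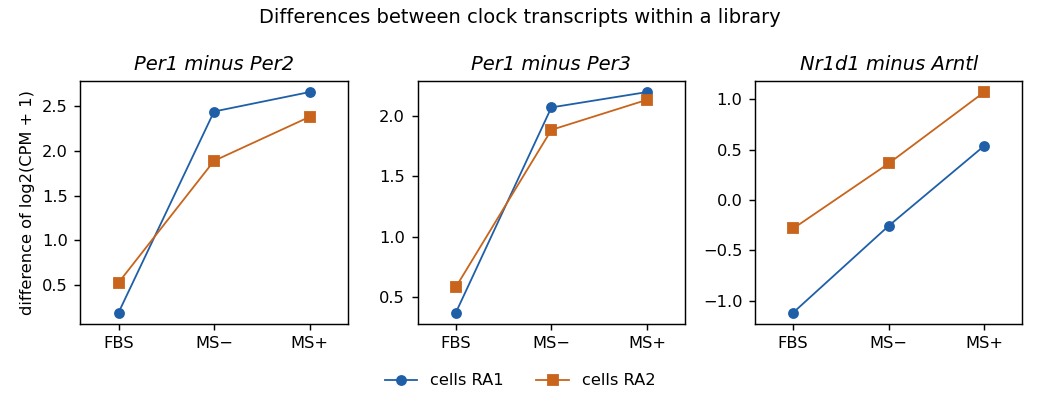
Difference of log2(CPM + 1) between 2 members of the same library (vertical axis) in FBS, MS− and MS+, for Per1 minus Per2, Per1 minus Per3 and Nr1d1 minus Arntl. Circles and squares are the cells RA1 and RA2; for Nr1d1 minus Arntl both MS+ libraries sit above the other 4. Only the change between sera can be read.

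Cry1 (NM_198750, chr7:20643879-20709216, plus strand), a strong repressor of the Clock and Arntl pair, stood at 10.5 and 13.9 CPM in FBS, 7.68 and 8.86 in MS−, and 6.13 and 6.42 in MS+. These levels rest on only 34 to 84 reads a library. The 3 groups did not overlap, with FBS highest and MS+ lowest. Cry1 fell in MS+ against FBS by 0.85 (SE 0.20, limma adjusted p = 0.0468). This call did not hold with limma-voom (0.0559), with DESeq2 (0.123), without the filter on low values (0.0866) or without any 1 of the 6 libraries (0.0770 to 0.181), and with the cell source as a block the limma adjusted p was 0.00447. The difference was -0.50 (SE 0.20, limma adjusted p = 0.218) in MS− against FBS, and in MS+ against MS− it was -0.35 (SE 0.20, 0.491).

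Cry2 (NM_133405, chr3:76802782-76830902, minus strand), the other cryptochrome, stood at 34.0 and 35.6 CPM in FBS, 30.9 and 39.9 in MS−, and 34.1 and 38.9 in MS+. The groups overlapped, and its 3 differences were 0.06, 0.01 and 0.05 on the log2(CPM + 1) scale for MS+ against FBS, MS− against FBS and MS+ against MS− (SE 0.15 each, limma adjusted p = 0.834, 0.975 and 0.922). The 95% interval for MS+ against FBS ran from -0.30 to 0.43.

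Nr1d1 (NM_001113422, chr10:87541246-87548186, minus strand), the repressor of Arntl in the second loop, stood at 8.68 and 11.3 CPM in FBS, 14.1 and 17.7 in MS−, and 26.8 and 24.6 in MS+, from 53 to 149 reads a library. Its promoter window 1 holds the E-box and window 2 only the variant. Which window belongs to this transcript was not tested. The 3 groups did not overlap, with FBS lowest and MS+ highest. Nr1d1 rose in MS+ against FBS by 1.29 (SE 0.19, limma adjusted p = 0.0116), or 3.09-fold in RA1 and 2.18-fold in RA2. This call was lost when FBS replicate 1 (0.0653), MS+ replicate 1 (0.0909) or MS+ replicate 2 (0.0626) was left out. The differences of 0.62 (SE 0.19, limma adjusted p = 0.125) in MS− against FBS and 0.67 (SE 0.19, 0.204) in MS+ against MS− were called only with the cell source as a block, at 0.0171 and 0.0217.

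The Nr1d1 transcript overlaps that of Thra (thyroid hormone receptor alpha, NM_031134), which lies on the opposite strand, by 1061 bp, and strand use in the counting was not stated. Thra stood at 25.5 and 20.7 CPM in FBS, 24.9 and 21.1 in MS−, and 26.8 and 27.0 in MS+. Its difference in MS+ against FBS was 0.22 (SE 0.16, limma adjusted p = 0.417), against 1.29 for Nr1d1. A shorter Nr1d1 transcript (NM_145775), which lies within the one used over 4856 bp, held 0 to 4 reads a library and was not used. Reads shared by these transcripts are not counted for either, so the level of Nr1d1 can rest on the unshared part only. The shorter transcript spans chr10:87541246-87546101, so the part of the one used that lies beyond it is its 5' end.

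Nr1d1 minus Arntl, taken within a library on the log2(CPM + 1) scale, was -1.12 and -0.28 in FBS, -0.26 and 0.36 in MS−, and 0.54 and 1.07 in MS+. It was higher in RA2 than in RA1 in every serum, and within each cell source it was lowest in FBS and highest in MS+. The 3 groups did not overlap, although FBS and MS− were separated by a narrow margin (-0.28 against -0.26).

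The output gene Dbp (NM_012543, chr1:96173573-96178485, plus strand), a transcription factor of D-box sequences, stood at 23.7 and 28.7 CPM in FBS, 28.9 and 31.3 in MS−, and 31.3 and 45.1 in MS+. The MS+ value of RA2 stood apart from the other 5, which lay between 23.7 and 31.3. The difference in MS+ against FBS was 0.51 (SE 0.19, limma adjusted p = 0.144) and was called only with the cell source as a block, at 0.0104. It was 0.20 (SE 0.19, limma adjusted p = 0.619) in MS− against FBS and in MS+ against MS− 0.31 (SE 0.19, 0.519).

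**Figure D3:**
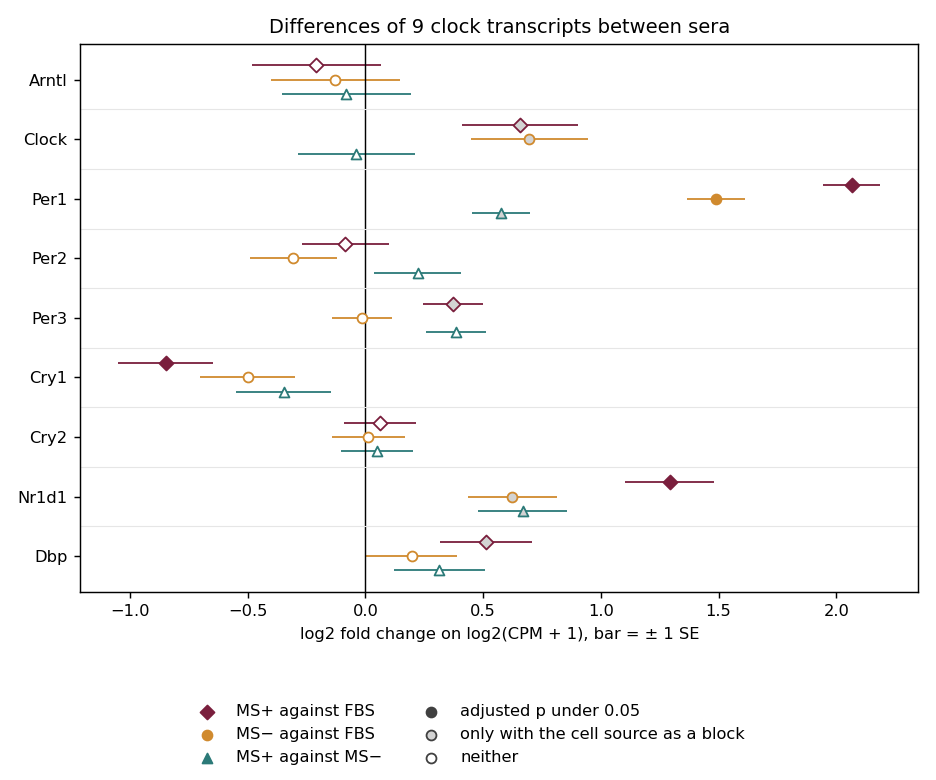
Difference between sera for the 9 members on the log2(CPM + 1) scale (horizontal axis), with bars of 1 SE from the limma fit without the cell source as a block. Diamonds are MS+ against FBS, circles MS− against FBS and triangles MS+ against MS−. Full colour marks an adjusted p under 0.05, grey a call made only with the cell source as a block, and white neither. Per1, Nr1d1 and Cry1 hold the 4 points in full colour.

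The rule of the study asks for an unadjusted p under 0.05, at least a 2-fold difference and a mean of at least 1 CPM. It was applied here to differences on the log2(CPM + 1) scale, whereas the study took its fold from limma-voom. Per1 and Nr1d1 passed in MS+ against FBS beside 5.3% of all transcripts, and Per1 in MS− against FBS beside 3.62%. No member passed in MS+ against MS−, beside 1.24%. Cry1, at -0.85 on the log2(CPM + 1) scale, came short of the fold.

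A list of 23 other clock genes held activators, further repressors, D-box factors, kinases and ubiquitin ligases that act on clock proteins, their partners and outputs. Of these, 18 were matched and tested. In none of the comparisons was any called by limma, edgeR, limma-voom or DESeq2 without the block, while an unadjusted limma p under 0.05 was reached by 4 in MS+ against FBS, 5 in MS− against FBS and 1 in MS+ against MS−. Their median difference was -0.12, -0.05 and -0.09 in the same order, beside 0.00078, 0.01 and -0.0058 for all transcripts. With the cell source as a block, 5 of 18 were called in MS+ against FBS (1 higher and 4 lower) and 3 of 18 in MS− against FBS (1 higher and 2 lower), beside the 28.2% and 20.5% of all transcripts given above. Between MS+ and MS− the block called 0 of 18, beside 10.1%.

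The ones with the largest mean difference over the comparisons were Timeless, Arntl2 and Nfil3. Timeless, a partner of the Per and Cry proteins that also acts in DNA replication, stood at 8.02 and 7.96 CPM in FBS, 3.11 and 4.52 in MS−, and 2.16 and 4.77 in MS+. Both rat sera lay below FBS, at -1.07 (SE 0.32, limma adjusted p = 0.087, blocked 0.00477) for MS+ and -0.92 (SE 0.32, 0.172, blocked 0.0170) for MS−. It rests on 12 to 49 reads a library. With the fold taken on the log2(CPM + 1) scale, it was the only gene of this list to pass the rule of the study, in MS+ against FBS. By ratios of mean CPM, Arntl2 in MS+ against FBS (0.433) and Timeless in MS− against FBS (0.477) also passed a fold of 2. Their unadjusted limma p were 0.00809 and 0.0262.

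Arntl2, a paralog of Arntl, stood at 5.40 and 8.46 CPM in FBS, 4.94 and 6.15 in MS−, and 2.70 and 3.30 in MS+. Both MS+ libraries lay below the other 4, and the difference from FBS was -0.96 (SE 0.26, limma adjusted p = 0.0682, blocked 0.00516). Nfil3, which competes with Dbp for D-box sequences, stood at 39.0 and 28.8 CPM in FBS, 28.9 and 22.8 in MS−, and 23.4 and 17.1 in MS+. It was lower in RA2 than in RA1 in every serum, and its difference in MS+ against FBS was -0.72 (SE 0.22, limma adjusted p = 0.0908, blocked 0.000927).

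The others called with the block in MS+ against FBS were the E-box repressor Bhlhe40 (0.39, SE 0.20, limma adjusted p = 0.266, blocked 0.0354) and the kinase Csnk1e (-0.44, SE 0.19, 0.196, blocked 0.0418). Called likewise in MS− against FBS were Bhlhe40 (0.54, SE 0.20, limma adjusted p = 0.190, blocked 0.00744) and Nono, a partner of the Per proteins (-0.28, SE 0.09, 0.130, blocked 0.0200), beside Timeless. Bhlhe40 stood at 244 and 275 CPM in FBS, 403 and 355 in MS−, and 425 and 272 in MS+, so the MS+ value of RA2 lay within the FBS range.

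**Figure D4:**
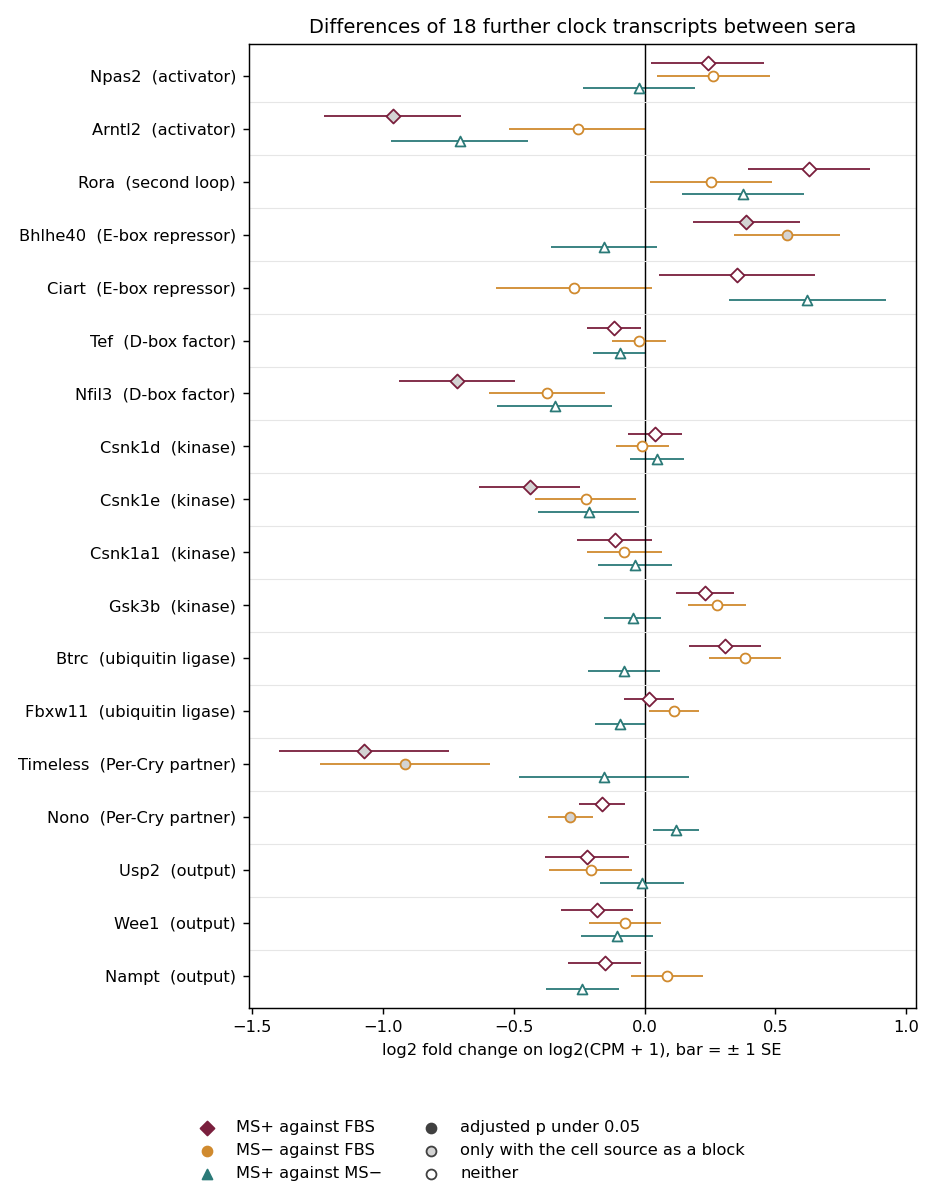
Difference between sera for the 18 other clock genes on the log2(CPM + 1) scale (horizontal axis), with bars of 1 SE from the limma fit without the cell source as a block and with the role of each gene in brackets. Symbols and fills are as for the members. No point is in full colour, grey points are calls made only with the block, and Timeless and Arntl2 reach furthest to the left.

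Transcripts with a pattern like that of Arntl and Dbp over the 6 libraries were listed by the Pearson correlation of log2(CPM + 1), among 7313 transcripts with a mean of at least 10 CPM. For Arntl these were Zfpm1 (r = 0.994), Ube2n (0.989) and Abcc4 (0.984), each of them lower in RA2 than in RA1 in every serum. For Dbp they were Kctd9 (0.990), RGD1309148 (0.984) and Mog (0.984), each with its highest level in the MS+ library of RA2. The 6 points share cell sources and sera, and with so many transcripts ranked such values are a description only.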

How the data were processed

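RNA-seq was made for the authors by a company, which removed low-quality reads. The authors aligned the rest to rn4 with Bowtie2 2.1.0, counted reads per transcript with HTSeq 0.5.4p3 (intersection-nonempty mode, which drops reads shared by overlapping transcripts), and deposited a signal in CPM with TMM scaling. Coordinates are 1-based transcript spans on rn4. Divided by the worth of 1 read, 100% of values came out whole (tolerance 1e-06). Floors cover counting error only.

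The filter asked for 1 CPM in both libraries of some group and left 9820 of 17221 transcripts. Differences were tested with limma 3.58.1 in R 4.3.3 (eBayes with trend, two-sided) on log2(CPM + 1), over all 6 libraries with serum as the only term. Fold changes on this scale understate those of low transcripts. Calls are at a Benjamini-Hochberg adjusted p under 0.05 over all transcripts. Alternatives were other scalings, a pseudocount of 0.1, no filter, limma-voom, edgeR 4.0.16 and DESeq2 1.42.0 on the recovered reads, the cell source as a block, and leaving out each library.

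The sample descriptions mark the cells RA1 or RA2 in every serum with the same number as the replicate, which was read as a shared cell source that pairs the samples. The labels do not say that each mark is 1 animal. The differences RA2 minus RA1 correlated across transcripts at r = 0.59 (MS+ with MS−), 0.49 (MS+ with FBS) and 0.62 (MS− with FBS). Replicates differed beyond sampling noise (chi-square per degree of freedom 13.6 to 15.1). P-values measure the spread between these cultures, which may be technical. Without the block, this spread includes the difference between RA1 and RA2.

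The 10 members were named whatever their values, and 3 genes of the other list by the size of their mean absolute difference. Those called with the block were named after their values were seen. The members, gene lists and marker lists were chosen with earlier results of these data known. Of 23 other clock genes 18 were matched, 1 of them (Ciart) by its RefSeq accession, and 1 further gene is not reported here. Promoters came from RefSeq (GRCr8) and were searched for motifs on both strands in Python 3.11.15.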

Additional observations from a re-analysis of the deposited data

How the results depend on the processing

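Of 405 values of members' differences under 15 alternatives to 27 results, 360 kept their direction and their side of the threshold, 15 came to pass it, 12 no longer passed it and 18 changed sign. Those 12 were 9 of Cry1 and 3 of Nr1d1 in MS+ against FBS, given above.

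With the replicate block the count of members called rose from 0 to 2 in MS+ against MS− and from 3 to 6 in MS+ against FBS and from 1 to 3 in MS− against FBS, by limma and by edgeR alike, and DESeq2 without the block called 1 in MS+ against MS−. Leaving out 1 library at a time gave 0, 1 to 2, and 1 members. For the other clock genes the block gave 0, 5 and 3 with limma and 0, 5 and 4 with edgeR, from 0 in each. The block changed no call of a member other than those named above, and all calls made without it were kept with it.

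Over all transcripts the calls numbered 2 in MS+ against MS−, 944 in MS+ against FBS and 472 in MS− against FBS. They came to 0, 586 and 255 without the filter, where more transcripts were tested, to 987, 2773 and 2011 with the limma block, and to 1015, 2861 and 2073 with the edgeR block. edgeR without the block called 3, 944 and 464. In MS+ against MS− limma-voom called 4 and DESeq2 123. Leaving out 1 library gave 0, 25 to 602, and 105 to 280, with 1 library fewer in the fit and the lone sample of a group assumed to vary like the others.

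The sign changes were all of uncalled values, the largest of which in the main fit was 0.22 for Per2 in MS+ against MS−. Cry2 in MS− against FBS was -0.0176 with library totals and -0.00077 with limma-voom. Without 1 library, Arntl ranged from -0.41 to 0.25 in MS+ against MS−, from -0.54 to 0.12 in MS+ against FBS and from -0.37 to 0.12 in MS− against FBS. Cry2 ranged from -0.13 to 0.23, from -0.032 to 0.16 and from -0.17 to 0.19 in the same order. In MS+ against MS− Clock ranged from -0.30 to 0.22 and Per2 from -0.034 to 0.48, and in MS− against FBS Per3 ranged from -0.088 to 0.062. Causes were not tested. Other scalings moved the median of all transcripts by less than 0.05. With 2 cultures a group and 34 to 84 reads for Cry1, differences of moderate size may be missed.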

Other observations

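The patterns most like those of Per1 and Nr1d1 over the 6 libraries, 2 members chosen after their values were seen, were listed in the same way among 7313 transcripts. For Per1 they were Etfdh (r = 0.9987), which passes electrons from fatty acid oxidation to the respiratory chain, Sipa1l1 (0.996) and Hadha (0.996), a subunit of the mitochondrial trifunctional protein of fatty acid oxidation. Etfdh stood at 35.8 and 37.0 CPM in FBS, 54.3 and 52.8 in MS−, and 64.5 and 61.3 in MS+, and Hadha at 28.2 and 29.0, 48.1 and 45.7, and 55.0 and 54.0. For Nr1d1 they were Mycbp2 (0.996), Sdc4 (0.996), a cell-surface proteoglycan of focal adhesions, and Nol8 (0.995). Sdc4 stood at 140 and 204 CPM in FBS, 258 and 326 in MS−, and 517 and 525 in MS+. These correlations rest on 6 libraries that share cell sources and sera and carry no test.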
